A study of Mus musculus with 4 samples.

Results

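*Plch1*, *Ovol2*, *Dtl*, *Baiap2l2* and *Tcap* are 5 of the 32285 genes in the deposited tables. They were selected on measured values: their summed counts were furthest below the rest of the tissue in spots rich in markers of oligodendrocyte progenitor cells (OPCs, the dividing cells that give rise to myelin-forming oligodendrocytes), among the called genes that were lower there in every section. The values that picked them were log2 fold changes of -1.18 for *Plch1*, -1.11 for *Ovol2*, -1.09 for *Dtl*, -1.03 for *Baiap2l2* and -0.97 for *Tcap*. *Grm2* and *Wnt10a* lay just outside the choice, both at -0.93. That fit called 3.10% of 14267 genes lower. These values are a description, and no test of them is given here. The question addressed below is where in the tissue the 5 genes were found, asked among the spots that are not rich in OPC markers.

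The data are Visium spatial transcriptomes of 4 fresh-frozen brain sections, all labelled *Nf1*+/-, that is, with 1 of the gene's 2 copies lost in the germline. *Nf1* encodes neurofibromin, a brake on Ras signalling. No wild-type section, no treatment and no age belong to these labels, nor do the labels tie the sections to separate mice. SDs of levels therefore measure the spread between 4 sections. Standard errors and p-values of the comparisons come from fits over those 4 sections. They combine counting error with how the difference between 2 spot groups varied, a spread moderated across genes. A Visium spot is a small disc of tissue that can hold several cells of different types, so fewer cells of a type and less RNA per cell cannot be told apart.

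Of 1554, 2359, 2320 and 1435 spots deposited for sections 1 to 4, 1537, 2358, 2294 and 1431 held at least 500 UMIs (unique molecular identifiers, the counted molecules) and were used. Their UMIs summed to 23472790, 37001945, 22012734 and 19261103. The median spot held between 8862.5 UMIs in section 3 and 15296.5 in section 2. Sections 1 and 4 held more spots with choroid plexus markers (189 and 76) than sections 2 and 3 (4 and 7), and pairs of sections shared 427 to 1989 barcodes, which name positions of a common slide layout.

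The 5 proteins belong to unrelated families, and none is a usual marker of a brain cell type. Ovol2 is a zinc-finger transcription factor known for keeping epithelial cells epithelial. Dtl is the substrate receptor of a cullin-4 ubiquitin ligase that marks proteins such as Cdt1 and p21 for destruction on replicating DNA. Plch1 is a phospholipase C, an enzyme that splits a membrane lipid into messengers that release calcium. Baiap2l2 shapes membranes in microvilli and in the stereocilia of hair cells, and Tcap (telethonin) caps titin at the Z-disc of striated muscle. The region markers used to place them are better known in brain. *Slc17a7* loads glutamate into vesicles of cortical and hippocampal excitatory neurons, and *Slc17a6* does so mainly in subcortical ones. *Ppp1r1b* marks striatal projection neurons, *Prox1* dentate granule neurons, *Cux2* upper and *Fezf2* deep cortical layers, and *Mbp* myelin.

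The genes lie on 5 chromosomes of the mouse assembly GRCm38.p6 as annotated by RefSeq. *Plch1* (ENSMUSG00000036834) spans chr3:63696199-63899503, *Ovol2* (ENSMUSG00000037279) chr2:144305175-144332080, *Dtl* (ENSMUSG00000037474) chr1:191537356-191575544, *Baiap2l2* (ENSMUSG00000018126) chr15:79258195-79285556 and *Tcap* (ENSMUSG00000007877) chr11:98383811-98384953. RefSeq promoter windows, 250 bases before to 50 bases after a transcription start, were at hand for *Plch1*, *Ovol2* and *Dtl*. Those of *Dtl* and *Ovol2* are shown because these genes, with *Tcap*, rose together in the *Slc17a7* comparison given further on. The *Dtl* window is chr1:191575495-191575794 and the *Ovol2* window chr2:144331313-144331612, both read from the minus strand. Capitals mark matches to CCAAT, TGACGTCA (the cAMP response element) and TTTGGCGC (an E2F motif).
Dtl: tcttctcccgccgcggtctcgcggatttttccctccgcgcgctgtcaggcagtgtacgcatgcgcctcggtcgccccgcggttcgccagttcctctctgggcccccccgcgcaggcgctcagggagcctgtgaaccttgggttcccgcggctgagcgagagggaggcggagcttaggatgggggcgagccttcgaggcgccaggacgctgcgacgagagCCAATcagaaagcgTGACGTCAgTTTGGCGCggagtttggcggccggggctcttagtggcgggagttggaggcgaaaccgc
Ovol2: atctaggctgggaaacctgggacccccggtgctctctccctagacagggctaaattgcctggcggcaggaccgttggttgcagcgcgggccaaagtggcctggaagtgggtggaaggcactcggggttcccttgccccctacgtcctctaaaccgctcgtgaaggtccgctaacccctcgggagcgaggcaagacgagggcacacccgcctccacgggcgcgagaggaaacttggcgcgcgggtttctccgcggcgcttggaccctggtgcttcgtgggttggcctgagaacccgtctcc

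In the *Dtl* window the matches began at positions -31 (CCAAT), -17 (TGACGTCA) and -8 (TTTGGCGC), counted from the first transcribed base. Of 32851 mouse promoter windows of this length, searched on both strands, 0.514% held TTTGGCGC, 1.79% held TGACGTCA and 37.4% held CCAAT. TGACGTCA also contains the shorter motif TGACGT, which 7.51% held. The *Ovol2* window held none of the 7 motifs searched, the others being TATAAA (13.6% of windows), GGGCGG (35.7%) and CANNTG (72.3%). Both windows were rich in G and C, at 68.3% in *Dtl* and 65.7% in *Ovol2* against a median of 52.7%. The *Dtl* window also held 37 CpG pairs, more than 94.4% of windows. The motifs were chosen with these sequences in view, and a match is a description of letters, not of binding.

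All 5 genes were sparse and all were detected in every section. *Ovol2* read 8.09, 17.4, 14.1 and 13.9 CPM (a gene's UMIs for every 1000000 UMIs of the section) in sections 1 to 4, with a mean of 13.4 ± 3.86 (SD, n = 4). *Dtl* read 6.35, 4.86, 6.31 and 8.51 CPM, a mean of 6.51 ± 1.50. *Plch1* read 4.69, 3.43, 3.54 and 4.83 CPM, a mean of 4.12 ± 0.737. For these genes the highest section exceeded the lowest 2.15-fold, 1.75-fold and 1.41-fold.

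*Baiap2l2* read 5.33, 4.11, 4.91 and 3.69 CPM, a mean of 4.51 ± 0.744. *Tcap* read 9.07, 15.8, 13.8 and 29.5 CPM, a mean of 17.0 ± 8.77, and it varied most between sections of the 5, 3.25-fold. The exact Poisson 95% interval of *Tcap* in section 4, 27.1 to 32.0 CPM, lay above those of the other sections. Such intervals cover counting error only. Over the 4 sections the tables held 408 UMIs of *Plch1*, 1410 of *Ovol2*, 632 of *Dtl*, 456 of *Baiap2l2* and 1668 of *Tcap*.

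**Figure D1:**
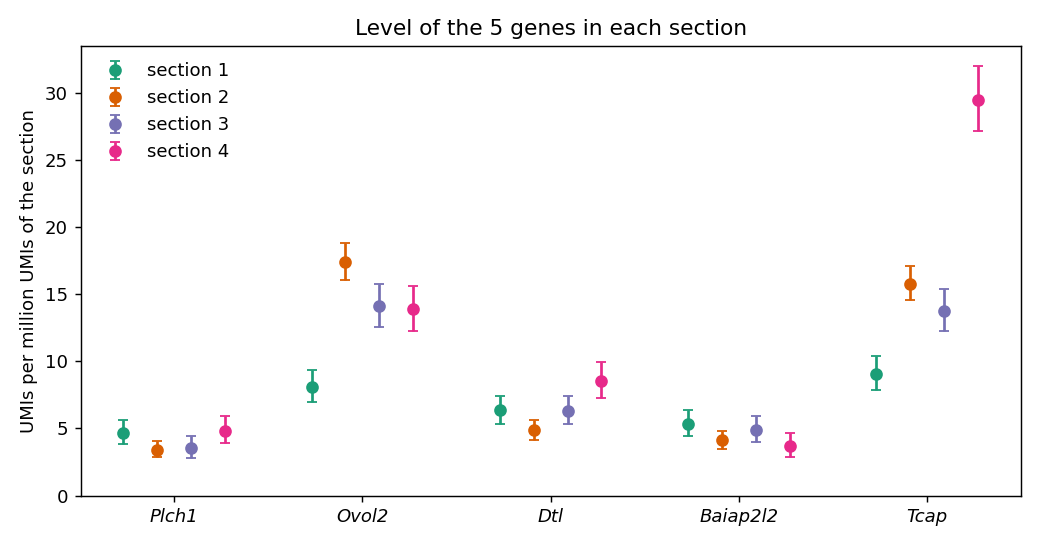
Level of each gene in each section, in CPM, with its exact Poisson 95% interval as the bar and 1 point per section. *Tcap* stood at 29.5 CPM in section 4 against 9.07 in section 1, while *Plch1* and *Baiap2l2* stayed between 3.43 and 5.33.

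A spot with any UMI of one of these genes was uncommon. On average 13.2% ± 4.38 of a section's spots held *Ovol2*, 7.20% ± 1.90 held *Dtl*, 5.28% ± 1.50 held *Plch1*, 5.57% ± 1.38 held *Baiap2l2* and 13.9% ± 5.62 held *Tcap* (SD, n = 4). Spots of at least 5000 UMIs, 1465, 2215, 1867 and 1224 in sections 1 to 4, were also thinned to 5000 UMIs. Over these deeper spots alone, the mean thinned shares were 5.49%, 2.79%, 1.95%, 2.09% and 6.30%. No spot held more than 4 UMIs of *Plch1* or 3 of *Baiap2l2*, and the highest for *Tcap* was 10. Values are therefore given below as sums over many spots.

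*Ovol2*, *Dtl* and *Tcap* were higher in spots rich in *Slc17a7*, the marker of cortical and hippocampal excitatory neurons, and *Plch1* was not. Spots were ranked within each section by how far *Slc17a7* exceeded what their depth predicts, and the top 10% were compared with the others, OPC-marker-rich spots left out of both. The remaining spots were the comparison side of the choice of genes, so the spots are not new. The contrast is a different one but not independent of the choice. With all spots scored, OPC-marker-rich spots made up 1.30% to 6.55% of *Slc17a7*-rich and 15.6% to 18.2% of *Mbp*-rich spots. A choice of genes low in them thus leans towards genes high in the former and low in the latter. The part of this in the counts of called genes was not tested. edgeR's quasi-likelihood test on summed UMIs, blocked by section and with p-values adjusted (Benjamini-Hochberg) across the whole table, called 3 of the 5 genes higher. It called 15.0% of 13982 genes higher and 14.5% lower. The median log2 fold change was 0.65 over the 5 genes and -0.01 over all.

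The ubiquitin ligase receptor *Dtl* showed the largest difference of the 5. It read 26.4, 9.63, 14.3 and 18.4 CPM in *Slc17a7*-rich spots of sections 1 to 4 and 3.54, 4.52, 5.03 and 7.38 CPM in the others. The groups did not overlap. The log2 fold change was 1.66 (SE 0.227, adjusted p = 3.57e-05, edgeR), 3.15-fold, from 209 and 395 UMIs. Shares were taken over the spots compared, without the OPC-marker-rich ones. Of the *Dtl* UMIs in sections 1 to 4, the *Slc17a7*-rich spots held 54.9%, 23.0%, 34.6% and 28.8%. Of all UMIs they held 14.0%, 12.3%, 15.7% and 14.0%.

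The transcription factor *Ovol2* read 20.4, 36.8, 21.3 and 24.1 CPM in *Slc17a7*-rich spots and 6.70, 15.6, 13.7 and 12.7 CPM elsewhere, again with no overlap. Its log2 fold change was 1.04 (SE 0.129, adjusted p = 1.34e-05, edgeR), from 340 and 1009 UMIs. The titin cap *Tcap* read 21.1, 23.1, 19.1 and 42.9 CPM against 7.63, 15.6, 13.9 and 28.3 CPM. Its groups overlapped, with section 4 high in both, but it was higher in all 4 sections, with a log2 fold change of 0.65 (SE 0.130, adjusted p = 0.00111, edgeR). That call for *Tcap* was lost in the top 5% of spots (log2 0.30, adjusted p = 0.125) and without the section block (adjusted p = 0.281).

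The membrane-shaping protein gene *Baiap2l2* read 8.37, 6.02, 6.37 and 4.90 CPM against 5.29, 3.98, 4.92 and 3.66 CPM, higher in all 4 sections. Its log2 fold change of 0.47 (SE 0.184) missed the threshold (adjusted p = 0.0667, edgeR). It passed without spots holding choroid plexus markers (log2 0.58, adjusted p = 0.0294) and with total-UMI scaling (adjusted p = 0.0381). The phospholipase *Plch1* differed by -0.04 (SE 0.223, adjusted p = 0.924, edgeR) and was higher in 2 of 4 sections.

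The *Slc17a7*-rich spots carried other markers fixed for cortical excitatory neurons, with *Neurod2*, *Neurod6* and *Tbr1* each called higher. All 7 genes of the *Ppp1r1b* list and all 7 of the *Mbp* list were called lower there. These spots were also deeper. Their median ranged from 14000 to 20881.5 UMIs across sections, against 8536 to 15298.5 in the others, and the part of depth in the result was not tested.

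**Figure D2:**
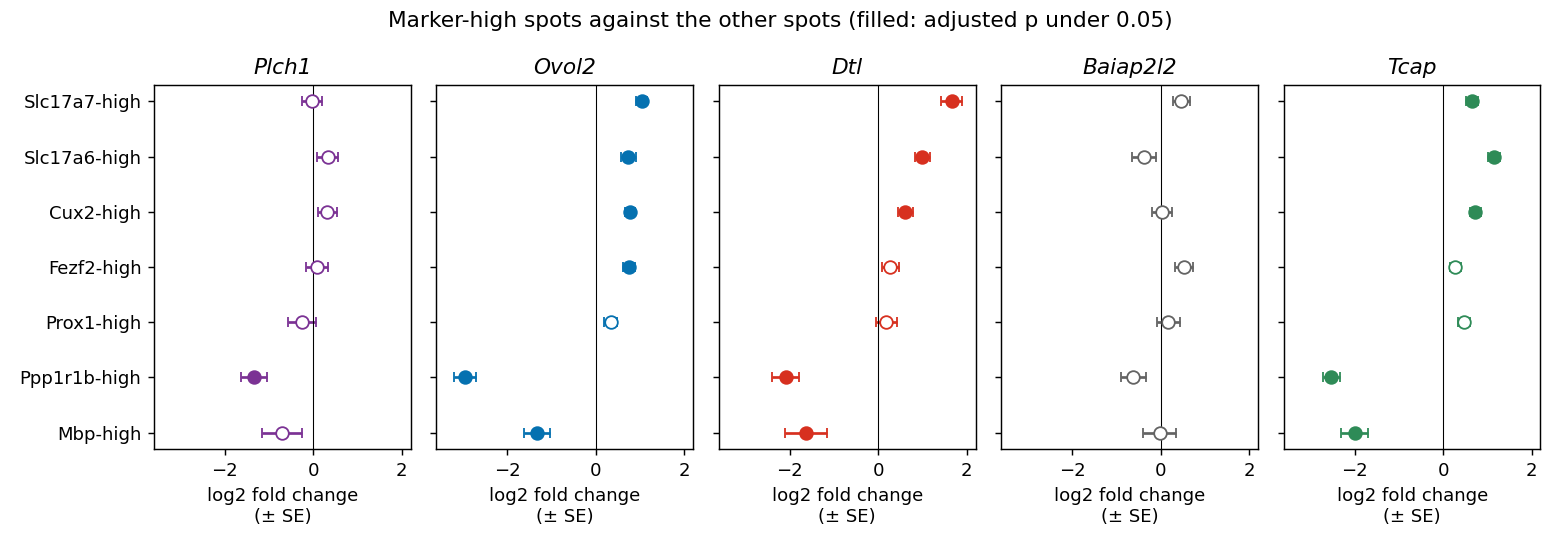
Log2 fold change of the 5 genes between the 10% of spots richest in each of 7 region markers and the other spots, with its standard error, over 4 sections. *Ovol2*, *Dtl* and *Tcap* lay above 0 for *Slc17a7* and below 0 for *Ppp1r1b* and *Mbp*, while *Plch1* was called only in *Ppp1r1b*-rich spots, at -1.34 (filled points passed an adjusted p of 0.05).

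Sorting spots into deciles by *Slc17a7* placed the rise of the same genes in the upper part of the range. Decile 10 is nearly the rich group already tested. Over deciles 1 to 4 mean *Dtl* stayed between 0.934 and 1.70 CPM and *Ovol2* between 2.09 and 3.57. Mean *Dtl* rose from 1.36 CPM in the lowest decile to 17.2 in the highest. *Ovol2* rose from 2.09 CPM and levelled off, at 25.2, 25.9 and 25.7 in the top 3 deciles. *Tcap* rose from 3.76 CPM to 33.8 in decile 9 and read 26.6 in decile 10. *Baiap2l2* moved from 3.04 to 6.42 CPM and *Plch1* from 3.12 to 4.28. Across the spots of a section the Pearson correlation of log-normalised values with *Slc17a7* was 0.272 to 0.325 for *Ovol2*, 0.152 to 0.282 for *Dtl* and 0.209 to 0.302 for *Tcap*. Those of *Baiap2l2* (0.0193 to 0.108) and *Plch1* (-0.0095 to 0.0744) were near 0. Spots of a section share a library, depth and many zeros, so these are descriptions, over 1431 to 2358 spots each.

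**Figure D3:**
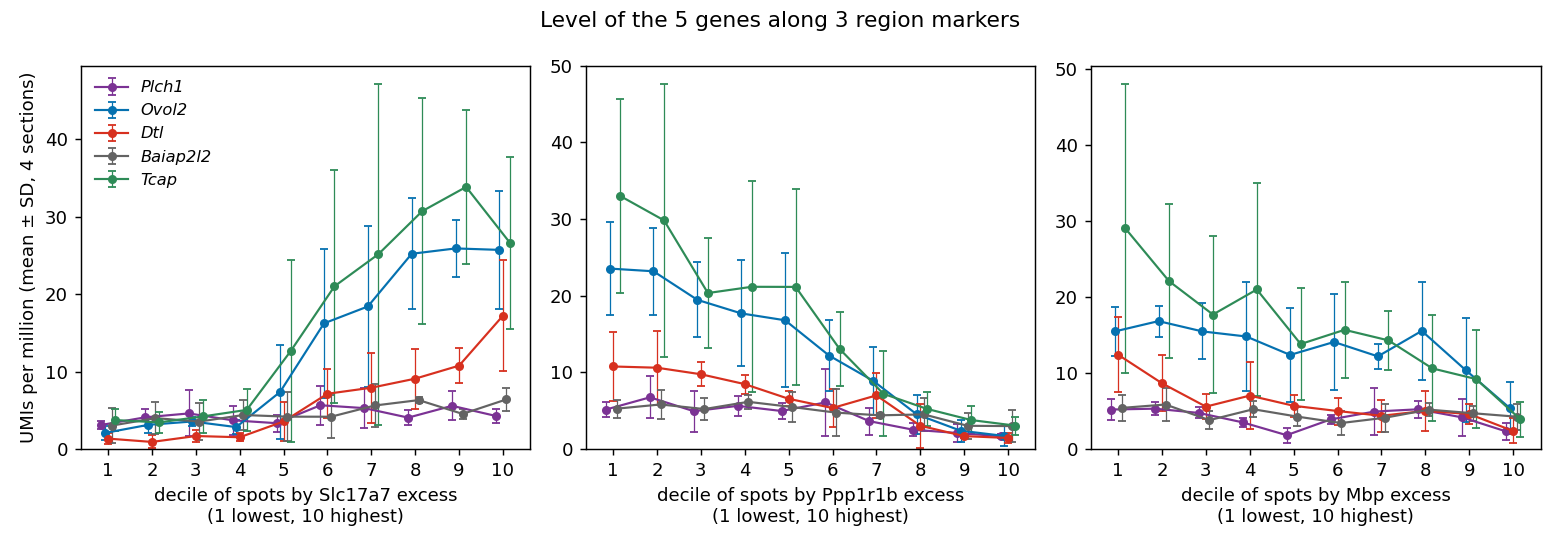
Mean level, in CPM over 4 sections, of the 5 genes in deciles of spots ordered by the excess of *Slc17a7*, of *Ppp1r1b* and of *Mbp*. Bars are SDs. *Dtl* climbed from 1.36 to 17.2 CPM with *Slc17a7*, and *Ovol2* dropped from 23.5 to 1.72 CPM with *Ppp1r1b*.

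In spots rich in *Ppp1r1b* (DARPP-32, the marker of striatal projection neurons) 4 of the 5 genes were called lower and all 5 were lower in all 4 sections. The fit called 19.0% of 13964 genes lower and 18.1% higher. *Ovol2* read 1.88, 3.43, 0.77 and 0.80 CPM there and 9.58, 20.1, 17.0 and 16.5 CPM in the other spots, 7.78-fold lower (log2 -2.96, SE 0.251, adjusted p = 2.96e-08, edgeR). *Tcap* read 1.51, 2.90, 4.25 and 3.62 CPM against 10.7, 18.3, 16.2 and 34.8 CPM (log2 -2.53, SE 0.195, adjusted p = 8.23e-09, edgeR). *Dtl* read 1.51, 2.37, 1.16 and 0.80 CPM against 7.49, 5.49, 7.28 and 10.3 CPM (log2 -2.09, SE 0.307, adjusted p = 2.68e-05, edgeR). For these 3 genes the groups were far apart, although the *Ppp1r1b*-rich sums held as few as 22, 35 and 18 UMIs. How many of all genes differed the same way in all 4 sections, or had groups without overlap, was not counted in any regional comparison.

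*Plch1* was lower in the same spots, at 1.88, 1.32, 1.93 and 1.61 CPM against 5.25, 3.86, 4.19 and 5.67 CPM, with no overlap. Its log2 fold change was -1.34 (SE 0.289, adjusted p = 0.00118, edgeR). *Baiap2l2* read 5.64, 2.11, 3.48 and 0.80 CPM against 5.73, 4.50, 5.39 and 4.34 CPM. Its difference, -0.62 (SE 0.287), did not pass (adjusted p = 0.102, edgeR) but did in the top 20% of spots (-0.75, adjusted p = 0.00892), with total-UMI scaling (adjusted p = 0.0482) and without section 1 (-1.02, adjusted p = 0.0279). The *Ppp1r1b*-rich spots were true to their marker. All 6 other striatal genes fixed for it, among them the dopamine receptor genes *Drd1* and *Drd2*, were called higher, with a median log2 value of 2.30, and the 5 genes of the *Slc17a7* list were called lower.

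In spots rich in *Mbp*, the myelin basic protein gene, 3 of the 5 were called lower. The fit called 9.63% of 14086 genes lower and 12.2% higher. The choice of the genes leans this way, as given above. *Tcap* was 3.98-fold lower (log2 -1.99, SE 0.306, adjusted p = 5.26e-05, edgeR). *Ovol2* was 2.52-fold lower (adjusted p = 0.0021). *Dtl* was 3.12-fold lower (log2 -1.64, SE 0.472, adjusted p = 0.0152), but its 8 UMIs in these spots were split 3, 0, 3 and 2 over the sections. That call was lost without section 2 (log2 -1.16, adjusted p = 0.0806) and in the top 5% of spots (-1.39, adjusted p = 0.128). *Plch1* (-0.71, adjusted p = 0.297) and *Baiap2l2* (-0.02, adjusted p = 0.991) did not pass. *Mbp*-rich spots were shallow, with medians of 3535.5 to 7672 UMIs against 9534 to 16281, and the part of depth was not tested.

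The cortical layer markers were compared in the same way. With all spots scored, OPC-marker-rich spots made up 2.10% to 8.05% of *Cux2*-rich spots and 10.2% to 10.9% of the rest. For *Fezf2* the shares were 5.84% to 8.47% and 10.2% to 10.5%. The choice of the genes thus leans towards genes high in these spots too, and the part of this was not tested. In *Cux2*-rich spots *Ovol2* (log2 0.77, SE 0.118), *Tcap* (0.73, SE 0.123) and *Dtl* (0.62, SE 0.167) were called higher, 3 of 5, where 6.73% of 14071 genes were called higher. In *Fezf2*-rich spots only *Ovol2* was called, higher by 0.75 (SE 0.132, adjusted p = 8.80e-05, edgeR), where 8.72% of 13951 genes were. *Tcap* there depended on how the spots were picked. It differed by 0.28 with *Fezf2* alone (adjusted p = 0.130) and was called lower, at -1.05, with the 6 genes of the *Fezf2* list (adjusted p = 0.000872). Without the section block, the calls in *Cux2*- and *Fezf2*-rich spots were all lost, and that of *Dtl* in *Cux2*-rich spots was also lost without section 1 (adjusted p = 0.0501) or section 2 (adjusted p = 0.097) and with DESeq2 (adjusted p = 0.111).

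*Slc17a6*-rich spots had *Tcap* (log2 1.16, SE 0.136), *Dtl* (0.99, SE 0.170) and *Ovol2* (0.73, SE 0.168) called higher, 3 of 5 against 4.98% of 14007 genes. *Ovol2* was higher in these spots in 3 of the 4 sections. These spots did not follow their label. Only 1 of the 4 other genes fixed as subcortical markers was higher in them, while all 5 of the *Slc17a7* list and 5 of the 6 of the *Cux2* list were. When the 5 subcortical genes were scored together in place of *Slc17a6* alone, the 3 differences were -0.05, -0.38 and -0.02, and none was called. The *Ovol2* call was further lost without section 2 (adjusted p = 0.174), without section 4 (adjusted p = 0.0696) and with DESeq2 (adjusted p = 0.0509). Without the section block all 3 calls were lost.

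*Prox1* gave no usable region. In the 4 sections a *Prox1* UMI was held by 79 of 138, 123 of 212, 93 of 206 and 77 of 129 spots scored as rich, none of the other dentate genes tested was called, and all 7 *Mbp*-list genes were higher. None of the 5 genes was called in those spots by edgeR, where 1.88% of 14046 genes were called in either direction. At an unadjusted p under 0.05, 2 of the 5 passed, and DESeq2 called 0.

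*Plch1* read above its section means in spot clusters led by ependyma markers, all small, and in clusters led by *Lbhd2*, *Zic1* and *Prkcd*. Spots were clustered within each section into 10 groups, the 5 genes and the OPC markers left out, and each cluster was assigned to the fixed marker list it was richest in. Of 5 clusters richest in the ependyma list (ciliated cells that line the ventricles), 4 had *Ccdc153*, *Tmem212* and *Rsph1* of that list among their leading genes. These 4 lay in sections 1 to 4 and read 17.6, 26.02, 5.37 and 47.4 CPM, from only 4, 7, 1 and 2 *Plch1* UMIs. That of section 3 had *Ttr* as its first leading gene. The fifth, 35 spots of section 4 that read 7.12 CPM from 1 UMI, was led mostly by choroid plexus genes such as *Ttr* and *Kl*. Of the ependyma list only *Ccdc153* was among its leading genes. The clusters led by *Lbhd2*, *Zic1* and *Prkcd* read 14.6, 5.55, 6.88 and 5.76 CPM in sections 1 to 4. The value of section 4 came from 2 UMIs in 48 spots, beside 4.83 CPM in that whole section. A cluster of section 1 led by *Itih3*, *Igsf1* and *Agt* read 9.45. The choroid plexus-led clusters read 9.59 CPM from 7 UMIs, and a cluster of section 4 led by *Baiap3*, *Nts* and *Dlk1* read 10.5. In the *Ppp1r1b*-led and *Mbp*-led clusters *Plch1* read 1.68 and 1.75 CPM. A cluster is set apart by the same spots it describes, so no test goes with these values.

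A comparison of spots rich in the 4 ependyma markers was added once the clusters had been seen. *Plch1* read 9.30, 7.07, 5.42 and 8.89 CPM there against 4.41, 3.24, 3.76 and 4.83 CPM elsewhere, with no overlap, and was called higher (log2 0.92, SE 0.248, adjusted p = 0.0229, edgeR). It was the only 1 of the 5 called higher, where 8.25% of genes were, and *Ovol2* (-1.37), *Dtl* (-1.38) and *Tcap* (-1.21) were called lower, where 7.28% were. The *Plch1* call was fragile. It was lost in the top 5% and top 20% of spots (adjusted p = 0.131 and 0.282), without choroid plexus-marker spots (adjusted p = 0.129), without the section block (adjusted p = 0.0661) and without section 1, 2 or 4 (adjusted p = 0.0768, 0.0736 and 0.0815). Of the ependyma-rich spots, 69 of 138 in section 1 and 43 of 129 in section 4 held choroid plexus markers, against 0 and 6 in sections 2 and 3. The rich group was a fixed share of spots, 138, 212, 206 and 129 in sections 1 to 4. The ependyma-led clusters held 107 spots over all sections, so most of the spots compared as rich lay outside them and are hardly ependyma.

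*Baiap2l2* had no clear home. The 2 small clusters led by choroid plexus markers, 47 spots of sections 1 and 4, held 14 of its UMIs, 19.2 CPM. Of these UMIs 12 lay in the 31 spots of section 1 and 2 in the 16 of section 4. The other clusters, pooled by their leading list, read 2.71 to 6.93 CPM, but single small clusters read more. An ependyma-led cluster of section 3, with *Ttr* first among its genes, read 21.5 CPM from 4 UMIs. Fibroblast-led clusters reached 13.1 CPM from 1 UMI and 11.9 CPM from 3 UMIs. In spots scored as rich in the choroid plexus list it differed by 0.28 (SE 0.360, adjusted p = 0.690, edgeR), where 5.60% of genes were called higher. Of these spots 108 of 138, 2 of 212, 7 of 206 and 67 of 129 in sections 1 to 4 held at least 3 choroid plexus markers, so those of sections 2 and 3 are hardly choroid plexus. In spots rich in interneuron markers (*Gad1*, *Gad2*, *Pvalb*, *Sst* and *Vip*) it read 8.67, 6.39, 9.18 and 4.55 CPM against 5.34, 3.95, 4.57 and 3.72 CPM. That difference was called (log2 0.69, SE 0.193, adjusted p = 0.0154, edgeR), as was that of *Tcap* (0.67, SE 0.110, adjusted p = 8.67e-05), 2 of 5 against 8.07% of genes called higher. The *Baiap2l2* call was lost in the top 5% (adjusted p = 0.419) and top 20% of spots (adjusted p = 0.43), without section 2 (adjusted p = 0.0561) or section 3 (adjusted p = 0.129) and with DESeq2 (adjusted p = 0.127).

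Among the other lists, *Dtl* (-2.23), *Tcap* (-1.94) and *Ovol2* (-1.35) were called lower in spots scored for choroid plexus, which in sections 2 and 3 mostly lack its markers, where 5.79% of genes were. *Tcap* was called lower in astrocyte-rich spots (-0.45, adjusted p = 0.0400, edgeR), where 8.17% of genes were, and *Ovol2* in neuroblast-rich spots (-0.56, adjusted p = 0.025), where 6.18% were. In 1 of the 4 sections *Ovol2* was higher in the neuroblast-rich spots. None of the 5 was called by edgeR in spots rich in microglia, endothelium or fibroblast markers, where 7.32%, 2.98% and 14.1% of genes were called in either direction. At an unadjusted p under 0.05, 1, 2 and 0 of the 5 passed in these 3 comparisons, and DESeq2 called 0. DESeq2 also called 0 of the 5 in astrocyte- and neuroblast-rich spots. All the regional comparisons draw on the same spots and are not independent of each other.

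**Figure D4:**
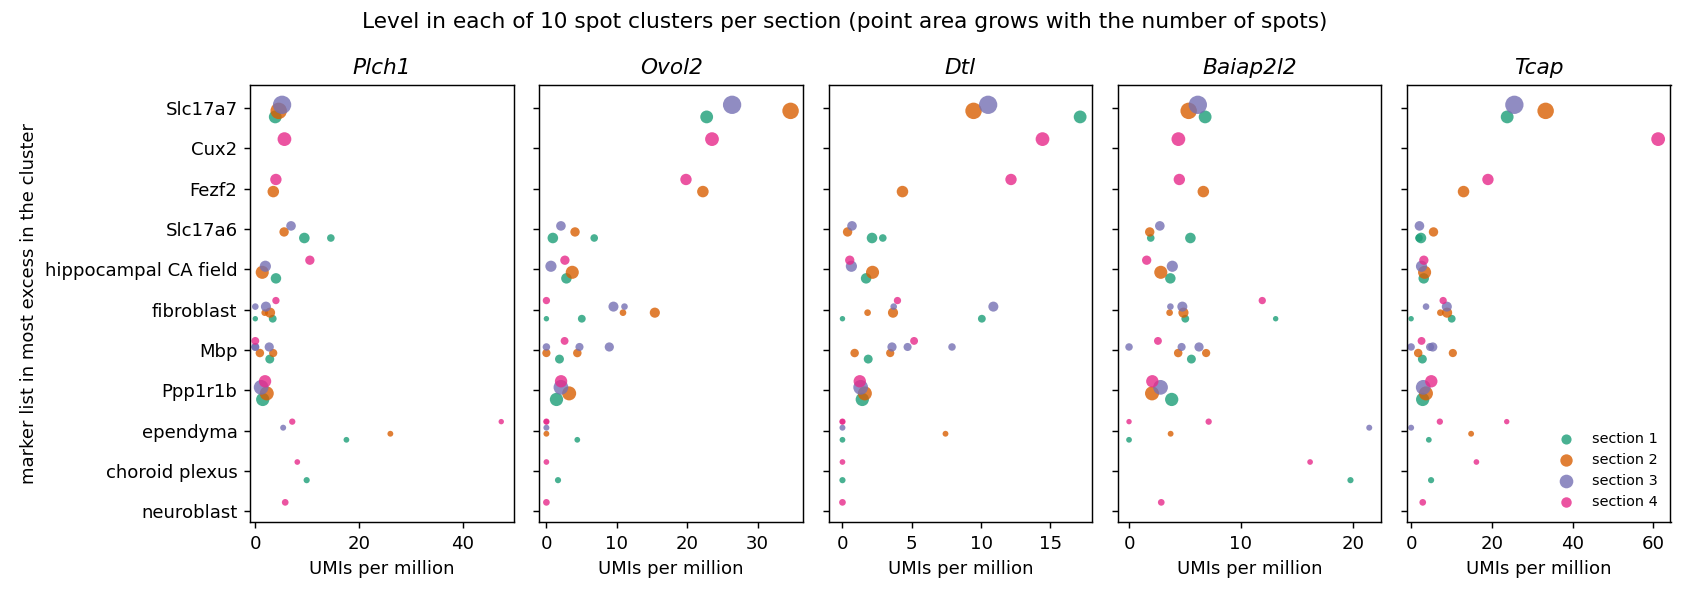
Level of the 5 genes, in CPM, in each of the 10 spot clusters of a section, arranged by the marker list that led them, 1 point per cluster with its area growing with the number of spots. *Ovol2* lay between 22.8 and 34.7 CPM in *Slc17a7*-led and between 1.43 and 3.23 in *Ppp1r1b*-led clusters, and *Plch1* reached 47.4 CPM in an ependyma-led cluster of section 4, from 2 UMIs in 8 spots. Clusters in the row of the hippocampal CA-field list were led by genes such as *Pdyn*, *Cartpt* and *Nts* and are not taken as hippocampus.

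The clusters placed *Ovol2* where cortical markers were high, and *Dtl* and *Tcap* less evenly so. In the 3 *Slc17a7*-led clusters (1772 spots of 3 sections) *Ovol2* read 29.2 CPM, *Dtl* 11.5 and *Tcap* 28.6. Section 4 had no *Slc17a7*-led cluster. In its *Cux2*-led cluster of 418 spots *Tcap* reached 61.2 CPM, *Ovol2* 23.5 and *Dtl* 14.4. The *Fezf2*-led cluster of section 4 was richer in the *Slc17a7* list, at 1.87 against 1.41 times the section level. The 2 *Fezf2*-led clusters read 21.0 CPM for *Ovol2*, 16.1 for *Tcap* and 8.42 for *Dtl*. The 4 clusters richest in the hippocampal CA-field list went against that name, being poor in *Slc17a7* and led by genes such as *Pdyn*, *Cartpt* and *Nts*. They read 2.93 CPM for *Ovol2*, 3.16 for *Tcap* and 1.62 for *Dtl*.

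Likeness was measured as the Pearson correlation of log2 CPM, centred within each section, over the 40 cluster sums and 12930 genes with at least 200 UMIs. The sums of a section share a library and the clusters differ in size. *Ovol2* was most like 9130024F11Rik (0.867), 1110008P14Rik (0.866) and *Bdnf* (0.866), a neurotrophin gene. *Dtl* was most like *Dkkl1* (0.864), *Cck* (0.808), which encodes the neuropeptide cholecystokinin, and 1110008P14Rik (0.806). The genes most like *Tcap* included *Lingo1* (0.753) and *Car4* (0.736).

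The other 2 genes had other partners. *Plch1* was most like *Vwa5b1* (0.857), 1700007K13Rik (0.830) and *Efcab10* (0.828). Over the 29 clusters of at least 50 spots these values were 0.801, 0.673 and 0.803. *Baiap2l2* was most like *Traf5* (0.728), *Zfp52* (0.721) and *Cr1l* (0.668). Its values over the same larger clusters dropped to 0.592, 0.585 and 0.556, and within single sections *Cr1l* went as low as -0.338. Among the 5 themselves, *Ovol2*, *Dtl* and *Tcap* correlated at 0.680 to 0.683, while *Plch1* stood at -0.115 with *Ovol2*, -0.151 with *Dtl* and 0.294 with *Tcap*, and *Baiap2l2* at -0.0354 with *Ovol2*, -0.0446 with *Dtl* and 0.111 with *Tcap*.

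The families and partners of the 5 genes were counted in the same comparisons. Of 13 other phospholipase C genes tested, 1 was called higher in *Slc17a7*-rich spots (*Plch2*, the other eta-type enzyme, log2 0.65) and 4 lower, and in *Ppp1r1b*-rich spots 2 were higher and 4 lower. These small counts stand beside 15.0% higher and 14.5% lower over all genes for *Slc17a7*, and 18.1% and 19.0% for *Ppp1r1b*. The list's median was -0.09 and 0.03 in these comparisons. The closest relatives of *Ovol2*, *Ovol1* and *Ovol3*, had 2 UMIs each in all sections and could not be tested.

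Of 9 genes that work with Dtl (the ligase subunits, its targets and replication licensing factors) all were tested. In *Slc17a7*-rich spots 1 was called higher, *Cdkn1a*, which encodes its target p21 (log2 0.40), and none lower, with a list median of 0.08. Over all genes 15.0% were called higher there and 14.5% lower. In *Ppp1r1b*-rich spots 1 of the 9 was higher, *Gmnn* (0.73), and 1 lower, *Pcna* (-0.21), beside 18.1% and 19.0% of all genes. Of the list of cycling-cell genes, *Mki67* held 72 and *Top2a* 74 UMIs over all 4 sections, the 4 *Mcm* genes 168 to 499, *Ccnb1* 1017 and *Pcna* 6213. Of these 8 cycling genes 6 were tested in *Slc17a7*-rich spots, with 1 called higher, *Ccnb1* (log2 0.73), and none lower. In *Ppp1r1b*-rich spots 3 of the 6 tested were called lower, *Mcm6* (-1.57), *Ccnb1* (-0.61) and *Pcna* (-0.21), and none higher. In *Mbp*-rich spots 1 of 7 tested was higher, *Pcna* (0.40), beside 12.2% of all genes, and none lower.

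Of 4 other I-BAR family genes, relatives of *Baiap2l2* that bend membranes outwards, 3 were tested. *Baiap2* (-0.18) and *Mtss1* (-0.45) were called lower in *Slc17a7*-rich spots, where 14.5% of all genes were. In *Ppp1r1b*-rich spots *Baiap2* (1.05) was called higher and *Mtss1* (-0.47) and *Mtss2* (-0.48) lower, beside 18.1% and 19.0% of all genes. Of 12 Z-disc genes and titin partners of *Tcap*, 3 were tested in *Slc17a7*-rich spots, with *Fhl2* higher (0.99) and *Actn2* lower (-1.44). In *Ppp1r1b*-rich spots the same 2 were called the other way, *Actn2* higher (2.10) and *Fhl2* lower (-1.25). Of genes that define striated muscle, all 4 sections together held 16 UMIs of titin (*Ttn*), 26 of *Ckm*, 18 of *Tnnt3*, 53 of *Myh4*, 221 of *Mylpf* and 2959 of *Acta1*, skeletal actin. *Acta1* was called higher in *Slc17a7*-rich spots (log2 0.45, adjusted p = 0.000768, edgeR), where 15.0% of all genes were. It was called lower in *Ppp1r1b*-rich spots (-0.57, adjusted p = 0.000222, edgeR), where 19.0% were. *Mylpf*, the other of these muscle genes tested, was called in neither (-0.49 and -0.07). In *Mbp*-rich spots *Mylpf* was called higher (1.65, adjusted p = 0.00516, edgeR), where 12.2% of all genes were, and *Acta1* was not called (-0.58). Of genes that define epithelium they held 20 UMIs of *Epcam*, 30 of *Cdh1*, 13 of *Grhl2*, 25 of *Esrp1*, 138 of *Krt8* and 204 of *Krt18*.

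The remaining question is how the 5 genes stood in the OPC-marker-rich spots that picked them, which numbered 154, 236, 229 and 143 in sections 1 to 4. These are the top 10% of spots by excess of 8 OPC markers, *Pdgfra* and *Cspg4* among them. They held 17 UMIs of *Plch1* (7, 6, 0 and 4 by section), 61 of *Ovol2* (6, 26, 12 and 17), 28 of *Dtl* (5, 6, 9 and 8), 21 of *Baiap2l2* (3, 9, 5 and 4) and 80 of *Tcap* (10, 24, 9 and 37). Every gene was lower there in every section, which the choice required.

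From depth alone 38.5 UMIs of *Plch1*, 131 of *Ovol2*, 59.5 of *Dtl*, 42.7 of *Baiap2l2* and 156 of *Tcap* were predicted, so 44.2% to 51.2% of the prediction was seen. A prediction that also used each spot's cluster gave 86.8 UMIs of *Ovol2*, 39.9 of *Dtl* and 101 of *Tcap*, of which 70.3%, 70.1% and 79.6% were seen. For *Plch1* it gave 41.8 and for *Baiap2l2* 39.4, of which 40.7% and 53.3% were seen. By section the share seen of this second prediction ran from 45.4% to 116.8% for *Tcap*. The counts are those that chose the genes, so these shares describe the choice and support nothing.

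OPC-marker-rich spots were themselves unevenly placed. With all spots scored, they made up 1.30%, 5.08%, 6.55% and 6.29% of the *Slc17a7*-rich spots of sections 1 to 4 and 15.6%, 16.9%, 16.2% and 18.2% of the *Mbp*-rich spots. Outside the *Slc17a7*-rich spots the share was 10.4% to 11.0%. The *Slc17a7*-led and *Cux2*-led clusters held 2.55% to 5.26% OPC-marker-rich spots, and the 7 *Mbp*-led clusters 13.6% to 24.5%. High shares were not particular to *Mbp*-led clusters. The clusters richest in the *Slc17a6* list held 9.41% to 22.7% and the fibroblast-led clusters 0.0% to 23.4%. The former are the clusters of sections 1 to 3 led by *Lbhd2*, *Zic1* and *Prkcd*, and that of section 1 led by *Itih3*. *Slc17a6* itself was not among their leading genes.

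**Figure D5:**
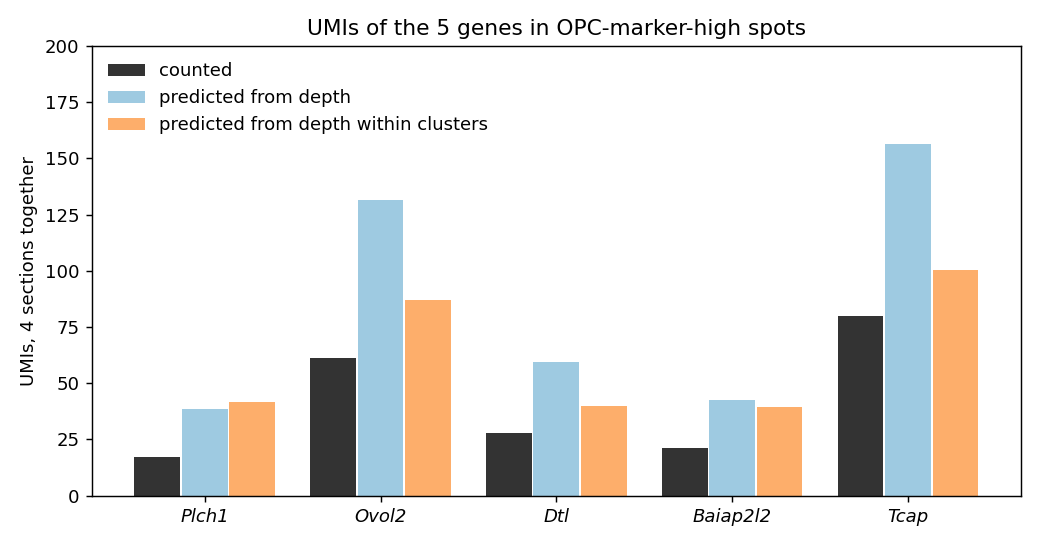
UMIs of the 5 genes in OPC-marker-rich spots, summed over 4 sections, as counted, as predicted from depth and as predicted from depth within clusters. The prediction for *Ovol2* dropped from 131 to 86.8 with the clusters while that for *Plch1* was 38.5 and 41.8. The counts are those that chose the genes.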

How the data were processed

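Visium libraries were made from 10 µm fresh-frozen sections of *Nf1*+/- mouse brain, 4 in all. The deposited files hold raw UMI counts per gene and spot, made by the authors with Space Ranger 1.3.1 (per the file headers) on mm10 (per the submitters' processing notes). Spots under 500 UMIs were left out. The members and lists were chosen with earlier results of these data known, and the named genes are the 5 members, the fixed markers and lists, the next genes by fall, and the 3 most alike genes of each member, of which 1 is not reported here. A spot's excess of a marker was its observed minus expected UMIs over the square root of the expected, and the top 10% of spots of a section formed the rich group. The UMIs of each spot group of a section were added up and tested in R 4.3.3 with edgeR 4.0.16 (quasi-likelihood test blocked by section, TMM scaling, the filterByExpr filter, p-values adjusted by Benjamini-Hochberg across the whole table, threshold 0.05). All 5 genes passed the filter in each comparison. The rich and other sums of a section are the same tissue. After subtracting group means they correlated at 0.416 to 0.548 over 12759 genes in the *Slc17a7* comparison. Lists of 8 other cell types were added as comparisons after the clusters were seen. Clusters came from k-means (10 per section, 20 principal components, 1000 variable genes, scikit-learn 1.9.0). Thinning drew 5000 UMIs from each deeper spot. No doublet caller was run. The fit was also run on simulated counts, for the *Slc17a7* and *Mbp* comparisons only. Its outcome is not reported here and no call rests on it. Alternatives changed the share of spots, the scaling, the filter, the block, the tool (DESeq2 1.42.0), the marker and the sections used. No reference genome was used, and sequences and positions are from RefSeq tables.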

Additional observations from a re-analysis of the deposited data

Results flagged for a closer look

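Of 50 sets of 4 section values examined, 4 held a section far from the other 3, where chance marks about 1 set in 20. For *Plch1* in OPC-marker-rich spots, the log2 ratio to other spots was -3.96 in section 3 against -1.02 to -0.46 elsewhere. It comes from 0 UMIs with 0.5 added, and with 3 counts in place of 0 the level was at least 2.58-fold lower. The ratio of *Dtl* in *Mbp*-rich spots was -3.88 in section 2 against -1.17 to -0.73, also from 0 UMIs, at least 2.45-fold lower. The ratio of *Dtl* in *Prox1*-rich spots was 0.74 in section 1 against 0.01 to 0.09. The ratio of *Tcap* in *Slc17a7*-rich spots was 1.47 in section 1 against 0.47 to 0.60. Section 1 had the lowest *Tcap* level outside those spots, 7.63 CPM.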

How the results depend on the processing

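The fits called 4116 genes in *Slc17a7*-, 1280 in *Slc17a6*-, 5181 in *Ppp1r1b*-, 264 in *Prox1*-, 1704 in *Cux2*-, 2203 in *Fezf2*- and 3071 in *Mbp*-rich spots. Without the replicate block, that is, without pairing the sums of a section, the counts were 1912 for *Slc17a7*, 390 for *Fezf2*, 2 for *Cux2* and 0 for *Slc17a6* and *Prox1*, and within 1.5 times for the other 2. DESeq2 called 2463 for *Slc17a7*, 655 for *Slc17a6*, 127 for *Prox1*, 893 for *Cux2* and 1199 for *Fezf2*. The top 5% of spots gave 826 for *Slc17a6* and 68 for *Prox1*, and the top 20% gave 1451 for *Prox1* and 2787 for *Cux2*. Scoring the marker list gave 47 for *Prox1*, 3719 for *Cux2* and 1393 for *Fezf2*. For *Prox1*, no filter gave 413 and adjustment over all 7 comparisons 637. With each section left out, counts ran from 3079 to 3736 for *Slc17a7*, 609 to 1524 for *Slc17a6*, 4080 to 4647 for *Ppp1r1b*, 128 to 248 for *Prox1*, 882 to 1946 for *Cux2*, 1501 to 1960 for *Fezf2* and 1643 to 3057 for *Mbp*.

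Of 238 repeats of the 17 calls of the 5 genes in the 7 regions, 217 kept direction and threshold, 18 lost the threshold and 3 reversed. The 3 were in *Slc17a6*-rich spots with the marker list (*Dtl* -0.38, *Ovol2* -0.024, *Tcap* -0.049). The other reversals were among values that had not been called, of which *Tcap* in *Fezf2*-rich spots was called at -1.05 with the list. In *Slc17a7*-rich spots *Plch1* read 0.22 in the top 20%, 0.0029 with OPC-marker-rich spots kept, 0.14 with the list, 0.025 with total-UMI scaling, and -0.20 to 0.11 with each section left out. In *Prox1*-rich spots *Dtl* read -0.013 in the top 5%, -0.11 without choroid plexus-marker spots, -0.0098 with the list and -0.029 to 0.26 with each section left out. There *Ovol2* read -0.056 in the top 20% and -0.034 with the list, *Plch1* -0.42 to 0.020 with each section left out, and *Tcap* -6.5e-05 in the top 20% and -0.21 with the list. In *Fezf2*-rich spots *Plch1* read -0.087 in the top 5%, -0.18 in the top 20% and -0.093 to 0.23 with each section left out. *Baiap2l2* read -0.043 with the list and -0.14 to 0.15 with each section left out in *Cux2*-rich spots, and 0.010 and -0.21 to 0.18 in *Mbp*-rich spots. The causes were not tested. Depth limits the *Mbp* comparison, where the rich spots held 8 UMIs of *Dtl*, 10 of *Plch1*, 16 of *Tcap*, 18 of *Baiap2l2* and 22 of *Ovol2*.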

Other observations

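Spots that held UMIs of 2 of the genes at once were counted for the 10 pairs and set against the number predicted from each spot's depth. *Ovol2* and *Tcap* met in 379 spots against 298 predicted (1.27 times), *Dtl* and *Tcap* in 183 against 144 (1.27) and *Ovol2* and *Dtl* in 146 against 119 (1.22). When the prediction used the levels of each cluster, the ratios were 0.911, 0.859 and 0.782. *Dtl* and *Baiap2l2* met in 62 spots against 42.9 predicted (1.44), and the ratio within clusters was 1.17. *Plch1* and *Tcap* met in 78 spots against 93.6 (0.833). These are descriptions with no test.

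Some genes had larger fitted falls in OPC-marker-rich spots than the 5 but rose in 1 section. *Cyp11a1*, which starts steroid synthesis, fell by 2.02 on the log2 scale overall and read 0.09 in section 4. *Sptssb* fell by 1.48 and read 0.10 in section 1, and *Gnrh1* fell by 1.39 and read 0.36 in section 4. The fit called 847 of 14267 genes in either direction in that comparison, 442 of them lower and 404 lower in all 4 sections.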
